A study of Mus musculus with 6 samples.

Results

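The 10 genes described here encode transcription factors, and 1 partner subunit, that set the fate and subtype of sensory neurons of the dorsal root ganglion. They were taken by name from the 47643 gene identifiers of the count tables: Isl1, Pou4f1, Prrxl1, Runx1, Runx3, Cbfb, Neurod1, Insm1, Shox2 and Tlx3. RNA came from embryonic dorsal root ganglia (day 13, CD-1 mice), and the groups were 3 libraries of cells treated with shUHRF1 lentivirus and 3 libraries of cells treated with shControl lentivirus. The shUHRF1 virus carries a hairpin against Uhrf1, which encodes a protein that binds hemimethylated DNA, and the study's stated purpose was to ask how transcription in uninjured neurons changes with it. All 6 libraries share the strain, the embryonic stage, the tissue, exposure to a lentivirus and the library protocol, and the hairpin is what the labels say differs. The labels do not say whether the libraries came from separate cultures, so the p-values reflect only how much these libraries vary, which may be technical variation.

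A sensory neuron acquires its identity in steps. Basic helix-loop-helix factors such as NEUROD1 act while neural crest cells become neurons, and the zinc finger protein INSM1 is made in cells that are leaving the cell cycle. The homeodomain factors ISL1 and BRN3A (the product of Pou4f1) then act in nearly all sensory neurons, and RUNX1, RUNX3, SHOX2, PRRXL1 and TLX3 act in subsets, where they help to choose receptors for pain, itch, touch or limb position.

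The libraries held 15599776 to 22382813 reads in genes. Uhrf1 itself was counted with 2, 1 and 5 reads in the shUHRF1 libraries, against 8, 6 and 5 reads in shControl. It was near the detection limit in both groups, and at this depth it is a weak check of the labels. All 17 pan-neuronal and sensory neuron markers listed, among them Prph and Avil, were detected in every library, while all 12 neural tube markers stayed below 1 CPM (counts per 1000000 reads in genes, with library sizes scaled by TMM) in every library. In bulk RNA, fewer cells of a type and less RNA per cell cannot be told apart, and this holds for every level given here.

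Of the 10 genes, 9 passed the filter on low counts and were tested. In the shUHRF1 libraries, 3 rose (Runx1, Prrxl1 and Shox2) and 2 fell (Insm1 and Neurod1), by edgeR's quasi-likelihood test with Benjamini-Hochberg adjustment over 15573 tested genes and a threshold of 0.05. These 5 of 9 stand against 24.0% of all tested genes called, with 11.6% (1807 genes) called higher and 12.4% (1928) lower. Upper-quartile scaling split the calls into 2512 higher and 1378 lower. Without shUHRF1 replicate 3, shControl replicate 1 or shControl replicate 3, 2171, 2018 and 1768 genes were called. Whichever of the 3 shControl libraries was left out, 2 members were called, Runx1 and Insm1. Isl1, Tlx3, Pou4f1 and Cbfb did not pass in the fit of all 6 libraries without a block, and Runx3 had almost no reads. With the replicate number as a block, 7 members were called, Pou4f1 and Cbfb in addition, against 31.0% of all tested genes. The median log2 fold change of the 9 was -0.30, against 0.017 over all tested genes. The 2 groups did not overlap for 7 of the 9, where they did not overlap for 44.0% of all tested genes. The lowest count of any tested member in any library was 12 reads.

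**Figure D1:**
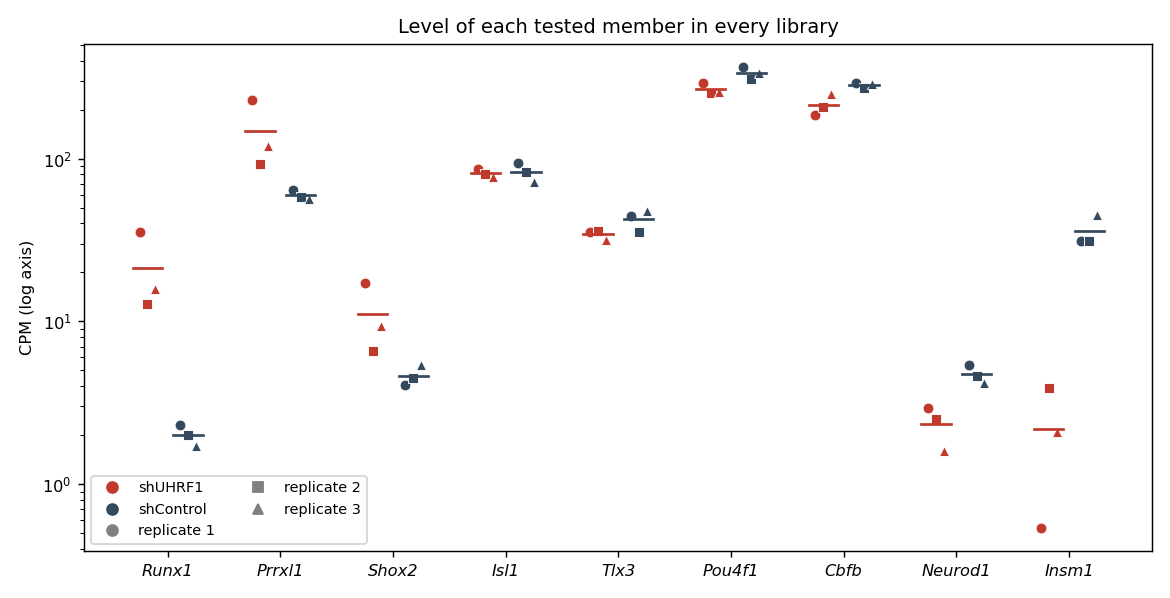
CPM (log axis) of the 9 tested members in each library, shUHRF1 in red and shControl in dark blue, with a marker shape for each replicate number and a line at the group mean. Runx1, Prrxl1 and Shox2 lie higher in all 3 shUHRF1 libraries, Insm1 and Neurod1 lower, and the groups overlap for Isl1 and Tlx3.

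Runx1 encodes the RUNX factor of nociceptors, which in mouse steers these neurons toward the class that lacks neuropeptides. It had 35.2, 12.7 and 15.9 CPM in the shUHRF1 libraries numbered 1, 2 and 3, against 2.32, 2.01 and 1.72 CPM in the shControl libraries. Every shUHRF1 library lay far above every shControl library, and the library numbered 1 stood highest. The mean was 21.3 ± 12.1 CPM in shUHRF1 and 2.02 ± 0.301 CPM in shControl (SD, n = 3 each), and the log2 fold change, 3.40 ± 0.41 (SE), had an edgeR adjusted p of 0.00177. By size of rise it ranked 98 among 15573 tested genes. The call held in all 6 fits with 1 library left out, with log2 fold changes of 2.83 to 3.64. Runx1 (ENSMUSG00000022952.16) spans 92601466 to 92826149 on the minus strand of chromosome 16 (GRCm38), with 9 merged exon blocks. The antisense gene Gm26626 overlaps 106 of its exonic bases and had at most 1 read in any library.

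UHRF1 binds methylated CpGs, and promoter windows of 4 of the 5 called members (Runx1, Prrxl1, Shox2 and Neurod1) are shown for their CpG content, which the counts did not use. Runx1 has a distal and a proximal promoter. Counts per gene do not show which was used. The windows run from 250 bases before to 50 after an annotated start, from RefSeq on GRCm38.p6, 5′ to 3′ on the gene's strand, with each CpG in capitals. They lie at chr16:92826025-92826324 (minus strand) for the distal and chr16:92697280-92697579 (minus strand) for the proximal promoter of Runx1, at chr14:32599677-32599976 (plus strand) for Prrxl1, at chr3:66981722-66982021 (minus strand) for Shox2 and at chr2:79456587-79456886 (minus strand) for Neurod1.
Runx1 distal promoter: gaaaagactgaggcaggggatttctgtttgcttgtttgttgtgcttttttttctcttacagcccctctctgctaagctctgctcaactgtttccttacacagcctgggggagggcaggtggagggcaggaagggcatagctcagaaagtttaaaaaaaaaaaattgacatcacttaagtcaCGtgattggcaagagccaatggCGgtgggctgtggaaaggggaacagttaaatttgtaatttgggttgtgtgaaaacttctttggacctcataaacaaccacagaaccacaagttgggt
Runx1 proximal promoter: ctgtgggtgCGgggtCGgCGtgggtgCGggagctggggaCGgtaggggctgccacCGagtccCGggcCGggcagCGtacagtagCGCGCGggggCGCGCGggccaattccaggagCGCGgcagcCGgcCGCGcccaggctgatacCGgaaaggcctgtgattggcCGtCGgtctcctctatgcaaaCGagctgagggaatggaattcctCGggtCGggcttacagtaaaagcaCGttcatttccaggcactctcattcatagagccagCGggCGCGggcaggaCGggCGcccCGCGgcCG
Prrxl1 promoter: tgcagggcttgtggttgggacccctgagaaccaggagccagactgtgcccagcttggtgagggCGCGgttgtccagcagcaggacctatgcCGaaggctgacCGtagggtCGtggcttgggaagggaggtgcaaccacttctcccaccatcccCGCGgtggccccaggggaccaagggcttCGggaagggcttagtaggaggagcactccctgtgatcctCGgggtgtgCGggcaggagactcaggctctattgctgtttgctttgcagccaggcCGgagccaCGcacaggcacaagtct
Shox2 promoter: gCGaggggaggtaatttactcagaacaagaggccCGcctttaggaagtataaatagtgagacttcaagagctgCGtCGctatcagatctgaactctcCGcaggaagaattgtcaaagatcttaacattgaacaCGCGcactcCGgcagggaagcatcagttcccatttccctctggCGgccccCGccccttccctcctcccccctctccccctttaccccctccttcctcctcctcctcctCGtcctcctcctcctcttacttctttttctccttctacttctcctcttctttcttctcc
Neurod1 promoter: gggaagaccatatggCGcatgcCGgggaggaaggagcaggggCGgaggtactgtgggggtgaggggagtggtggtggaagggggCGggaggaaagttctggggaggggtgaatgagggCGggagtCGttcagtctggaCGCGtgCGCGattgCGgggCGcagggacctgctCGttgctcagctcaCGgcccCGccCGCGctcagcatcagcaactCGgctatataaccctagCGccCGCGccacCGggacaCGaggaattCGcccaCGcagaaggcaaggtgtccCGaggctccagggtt

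The distal Runx1 window held 2 CpGs, and 85.9% of 32851 promoter windows held as many or more. The proximal one held 35, reached by 6.95% of windows. Over all windows the median was 7. Prrxl1 held 12 CpGs (reached by 39.6%), Shox2 held 11 (41.4%) and Neurod1 held 26 (16.9%). All of these but the distal Runx1 window exceeded the median, and so did the windows of members that were not called, with 57 CpGs for Pou4f1 (0.152% of windows reach this), 37 for Isl1, 30 for Cbfb and 18 for Tlx3. The 2 windows of Runx3 held 8 and 45. The RUNX core TGTGGT, searched on both strands, occurs in 16.8% of all windows. It was present at 2 places in the distal Runx1 window and at 1 in that of Prrxl1, and its letters were not in the other windows shown. Among members that were not called, 1 window of Runx3 held it at 2 places, and those of Isl1, Pou4f1, Cbfb and Tlx3 held it at 0. The E-box CANNTG, searched on both strands, occurs in 72.3% of all windows. It was present at 3 places in the distal Runx1 window and at 1 in that of Neurod1. It was also present at 2 places in the window of Pou4f1, and at 1 in that of Isl1 and in each of the 2 windows of Runx3. These matches describe letters and not bound sites, and methylation was not measured in these libraries.

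Prrxl1 encodes a paired-like homeodomain protein, also called DRG11, that the wiring of pain afferents into the dorsal spinal cord requires in mouse. Its level was 229, 92.4 and 120 CPM in the shUHRF1 libraries numbered 1, 2 and 3, against 64.3, 57.9 and 56.4 CPM in the shControl libraries. The groups did not overlap, and the shControl libraries were close together while the shUHRF1 libraries spanned 2.48-fold. The log2 fold change, 1.31 ± 0.30 (SE), had an edgeR adjusted p of 0.0185. The call was lost when any shControl library was left out, with edgeR adjusted p of 0.0577, 0.0576 and 0.0743 without the libraries numbered 1, 2 and 3. Prrxl1 (also named Drgx, ENSMUSG00000041730.13) lies on chromosome 14 at 32599407 to 32649246, plus strand, GRCm38.

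Shox2 encodes a homeodomain protein that touch neurons with the receptor TRKB require in mouse. It had 17.3, 6.59 and 9.40 CPM in the shUHRF1 libraries numbered 1, 2 and 3, against 4.07, 4.47 and 5.40 CPM in the shControl libraries. All shUHRF1 values were higher, but the library numbered 2 lay near the shControl range. The log2 fold change, 1.26 ± 0.35 (SE), had an edgeR adjusted p of 0.0352. The call held in only 1 of 6 fits with 1 library left out, that without shUHRF1 replicate 2 (1.49), and edgeR adjusted p in the other fits was 0.0572 to 0.115. It was also lost with limma-voom (adjusted p = 0.0596). Shox2 (ENSMUSG00000027833.16) lies on chromosome 3 at 66971727 to 66981771, minus strand, GRCm38. Of its 3311 merged exonic bases, 153 are shared with Rsrc1 on the opposite strand, and the strand setting of the counting is not given in the sources used here. Rsrc1 had 47.8, 41.9 and 53.3 CPM in the shUHRF1 libraries and 43.0, 49.5 and 48.1 CPM in the shControl libraries, levels that overlap between the groups. Ntrk2, which encodes TRKB, had 27.8, 4.65 and 5.57 CPM in the shUHRF1 libraries and 2.79, 3.04 and 0.574 CPM in the shControl libraries (log2 fold change 2.60, edgeR adjusted p = 0.0534, or 0.0169 with the replicate number as a block). Without shUHRF1 replicate 1, where it was highest, the log2 fold change was 1.28, and edgeR adjusted p over the 6 fits with 1 library left out was 0.0297 to 0.151.

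Insm1 encodes a zinc finger factor of newborn neurons and neuroendocrine cells, and it fell more than almost any other gene. It had 0.539, 3.89 and 2.08 CPM in the shUHRF1 libraries numbered 1, 2 and 3, against 31.0, 31.2 and 45.3 CPM in the shControl libraries. These came from 12, 66 and 43 reads in the shUHRF1 libraries and from 533, 482 and 948 reads in the shControl libraries. The groups were far apart, and the library in which Runx1 was highest was the one in which Insm1 was lowest. The log2 fold change, -4.08 ± 0.54 (SE), had an edgeR adjusted p of 0.00226, and only 3 of 15573 tested genes fell further. The call held in all 6 fits with 1 library left out, and the log2 fold change was -4.81 without shUHRF1 replicate 2. Insm1 (ENSMUSG00000068154.5) is a single-exon gene of 3100 bases on chromosome 2 (146221921 to 146225020, plus strand, GRCm38), and no other annotated gene overlaps it.

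Neurod1 encodes a basic helix-loop-helix factor that acts downstream of the neurogenins. It was weakly expressed, at 2.92, 2.53 and 1.60 CPM in the shUHRF1 libraries numbered 1, 2 and 3, against 5.40, 4.6 and 4.21 CPM in the shControl libraries. The groups did not overlap, at 33 to 65 reads in shUHRF1 and 71 to 93 reads in shControl. The log2 fold change, -1.01 ± 0.28 (SE), had an edgeR adjusted p of 0.0357. The call held in 2 of 6 fits with 1 library left out, those without shUHRF1 replicate 1 or replicate 2. It was lost in the other 4 (edgeR adjusted p = 0.0722 to 0.112), with library pairs 1 and 3 alone (0.0946) and with upper-quartile scaling (0.0544). Neurod1 (ENSMUSG00000034701.9) lies on chromosome 2 at 79452521 to 79456751, minus strand, GRCm38. Of its 2729 exonic bases, 201 are shared with Cerkl on the same strand and 154 with the lincRNA Gm26755 on the opposite strand. Cerkl had at most 22 reads in any library and Gm26755 had 0 in all 6.

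**Figure D2:**
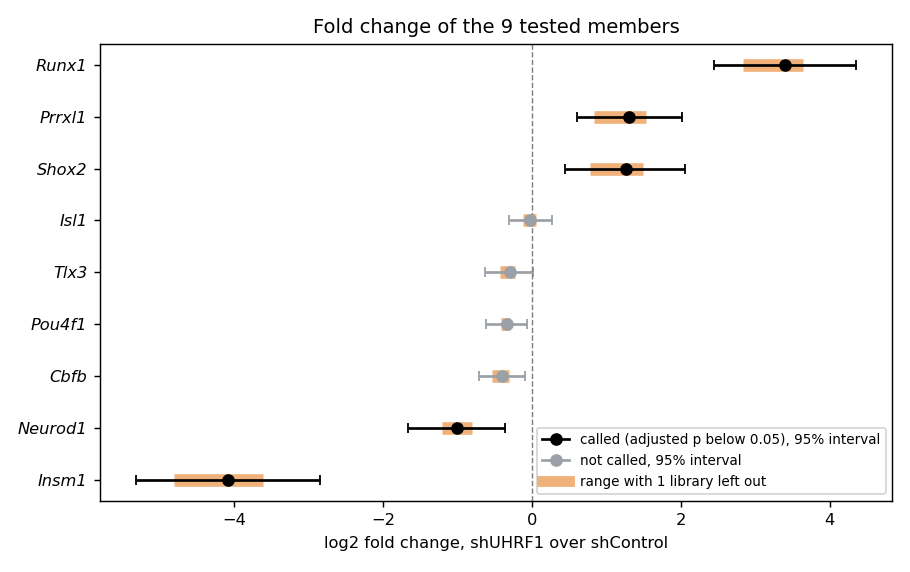
Log2 fold change of the 9 tested members in shUHRF1 over shControl, with points at the edgeR estimate, whiskers for its 95% interval and orange bars for the range over 6 fits with 1 library left out. Runx1 at 3.40 and Insm1 at -4.08 lie far from 0 in every fit, and the interval of Isl1, -0.31 to 0.27, covers 0.

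Isl1 and Pou4f1, the factors shared by nearly all sensory neurons, were abundant in both groups. Isl1 had 86.2, 80.1 and 77.5 CPM in the shUHRF1 libraries numbered 1, 2 and 3, against 93.7, 82.3 and 71.9 CPM in the shControl libraries. These ranges overlap, and the log2 fold change of -0.02 had a 95% interval of -0.31 to 0.27 (edgeR adjusted p = 0.913). Its sign turned positive with upper-quartile scaling, at 0.10. Pou4f1 had 290, 252 and 255 CPM in the shUHRF1 libraries, against 365, 306 and 334 CPM in the shControl libraries. Every shUHRF1 library was lower, with a log2 fold change of -0.33 (95% interval -0.61 to -0.06), and the edgeR adjusted p was 0.0749, or 0.0494 with the replicate number as a block. DESeq2 also called it (adjusted p = 0.0440). On GRCm38, Isl1 (ENSMUSG00000042258.13) lies on the minus strand of chromosome 13 at 116298281 to 116309689, and Pou4f1 (ENSMUSG00000048349.9) on the minus strand of chromosome 14 at 104461676 to 104467999. The motor neuron marker Mnx1, which marks another cell type with Isl1, had 0 reads in all 6 libraries, and 4 of the 6 motor neuron markers stayed below 1 CPM throughout. The other 2, the choline transporter gene Slc5a7 and the vesicular acetylcholine transporter gene Slc18a3, rose by log2 fold changes of 1.44 and 2.99 (edgeR adjusted p = 0.0403 and 0.0409), each held in 1 of 6 fits with 1 library left out. Without shUHRF1 replicate 1 these log2 fold changes were 0.85 and 1.74. The list summed to 148, 47.8 and 69.3 CPM in the shUHRF1 libraries and to 43.8, 31.2 and 22 CPM in the shControl libraries, and its part in the level of Isl1 was not tested.

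Tlx3 encodes a homeodomain factor of pain and itch neurons and of glutamatergic neurons of the dorsal horn. It had 35.4, 36.1 and 31.6 CPM in the shUHRF1 libraries, against 44.3, 35.5 and 47.4 CPM in the shControl libraries. The groups overlapped, and the log2 fold change of -0.30 had a 95% interval of -0.63 to 0.02 (edgeR adjusted p = 0.152). Tlx3 (ENSMUSG00000040610.7) lies on chromosome 11 at 33200752 to 33203589, minus strand, GRCm38. The dorsal horn marker Lbx1 was below 1 CPM in every library.

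Of the RUNX genes and their partner, Runx1 alone passed the test. Cbfb, whose product binds no DNA but stabilises RUNX proteins on it, had 186, 206 and 251 CPM in the shUHRF1 libraries numbered 1, 2 and 3, against 291, 271 and 286 CPM in the shControl libraries. All shUHRF1 values were lower, with a log2 fold change of -0.40 (95% interval -0.71 to -0.09), and the edgeR adjusted p was 0.0624. It was 0.0456 with the replicate number as a block, 0.0388 with DESeq2, 0.0482 without a low-count filter and 0.0404 without shUHRF1 replicate 3. Runx3, the RUNX factor of limb-position neurons, had 3 reads in shUHRF1 replicate 1 and 0 in every other library, of 57289121 reads in genes in shUHRF1 and 56305428 in shControl. The limit that a count of 0 allows was set at 3 reads, which is 0.0559 CPM over the shControl libraries. It covers counting error only. Over the shUHRF1 libraries 3 reads are 0.05 CPM, which is the observed value there and not an upper limit. No fold is given. On GRCm38, Cbfb (ENSMUSG00000031885.13) lies on the plus strand of chromosome 8 at 105170674 to 105217989, and Runx3 (ENSMUSG00000070691.10) on the plus strand of chromosome 4 at 135120652 to 135177990. Pvalb and Ntrk3, markers of the neurons in which Runx3 acts, were present. Pvalb had 59.0 to 73.0 CPM in shUHRF1 and 66.5 to 84.7 CPM in shControl. Ntrk3 had 66.3 to 131 CPM in shUHRF1 and 60.7 to 122 CPM in shControl, and neither passed (edgeR adjusted p = 0.341 and 0.677). Of the 18 tested genes on their list of mechanoreceptor and proprioceptor genes, 2 were called higher and 5 lower. That is 38.9% called, against 24.0% of all tested genes.

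Levels of different genes are compared per kilobase of merged exon, since longer transcripts give more reads. By group mean, Cbfb and Pou4f1 led in both groups. Cbfb had 61.6 ± 9.65 CPM per kb in shUHRF1 and 81.3 ± 2.99 in shControl, and Pou4f1 had 56.9 ± 4.51 in shUHRF1 and 71.7 ± 6.37 in shControl (SD, n = 3 each). Their libraries overlapped in each group, so their order is not resolved. In shUHRF1 the order after them was Prrxl1 (35.3 ± 17.3 CPM per kb), Tlx3 (22.4 ± 1.57), Isl1 (20.5 ± 1.13), Shox2 (3.35 ± 1.67), Runx1 (1.77 ± 1.01), Neurod1 (0.861 ± 0.249) and Insm1 (0.700 ± 0.540), with Runx3 last. Of these neighbours, only Isl1 and Shox2, and Insm1 and Runx3, did not overlap. Prrxl1 also overlapped Pou4f1 and Cbfb in shUHRF1. In replicate 1 it had 55 CPM per kb, against 62.1 for Pou4f1 and 53.3 for Cbfb. In shControl the order was Tlx3 (27.7 ± 4.02 CPM per kb), Isl1 (20.9 ± 2.76), Prrxl1 (14.3 ± 1.01), Insm1 (11.6 ± 2.66), Neurod1 (1.74 ± 0.223), Shox2 (1.40 ± 0.208) and Runx1 (0.168 ± 0.025), with Runx3 at 0. There Tlx3 and Isl1, Prrxl1 and Insm1, and Neurod1 and Shox2 overlapped. Insm1 thus stood in place 9 of 10 in shUHRF1 and in place 6 in shControl, while Runx1 stood in place 7 in shUHRF1 and in place 9 in shControl. Scaled by the longest transcript instead, Runx1 stood in place 6 in shUHRF1, ahead of Shox2, and Isl1 stood ahead of Tlx3 in both groups, in place 4 in shUHRF1 and in place 3 in shControl.

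**Figure D3:**
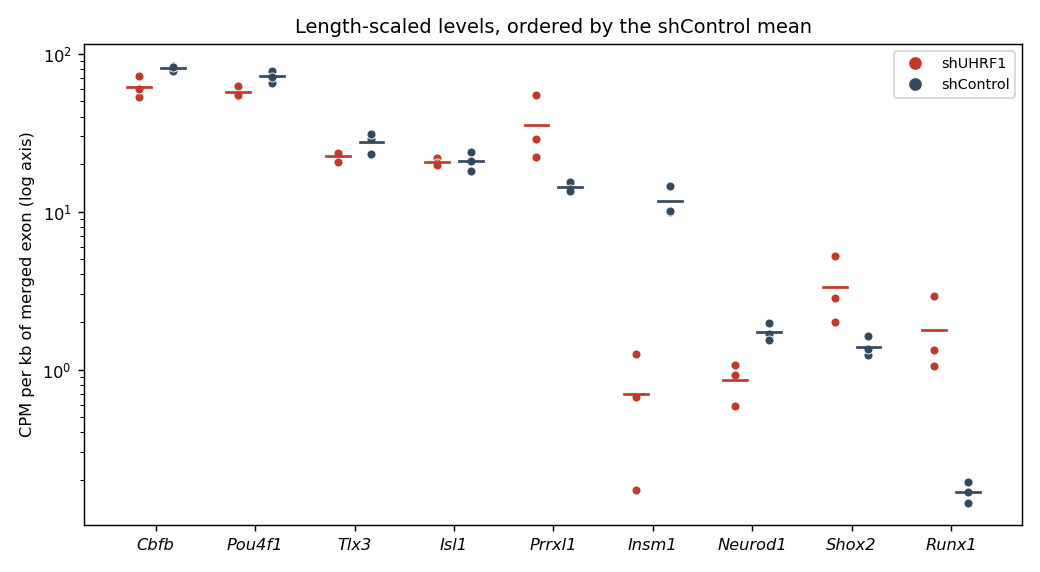
CPM per kilobase of merged exon (log axis) of the 9 tested members in each library, ordered by the shControl mean, with shUHRF1 in red, shControl in dark blue and a line at each group mean. By group mean, Cbfb and Pou4f1 are highest in both groups. The mean of Insm1 lies below that of Runx1 in shUHRF1 and above it in shControl.

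Ratios within a library do not depend on the scaling between libraries. Isl1 stood at 0.351, 0.375 and 0.359 of Pou4f1 per kilobase in the shUHRF1 libraries and at 0.303, 0.317 and 0.254 in the shControl libraries, so this ratio was higher in each shUHRF1 library. Prrxl1 stood at 0.885, 0.410 and 0.529 of Pou4f1 in the shUHRF1 libraries and at 0.197, 0.212 and 0.189 in the shControl libraries. Per kilobase, Cbfb was 18.1, 56.0 and 54.5 times the sum of Runx1 and Runx3 in the shUHRF1 libraries and 433, 467 and 574 times in the shControl libraries. The Cbfb excess was thus smaller in every shUHRF1 library, and Cbfb was the more abundant in all 6. With the longest transcript as the length, the ratio was 10.6, 32.9 and 32 in the shUHRF1 libraries and 254, 274 and 337 in the shControl libraries. With that length, Isl1 stood at 0.525, 0.561 and 0.537 of Pou4f1 in the shUHRF1 libraries and at 0.453, 0.475 and 0.380 in the shControl libraries. Prrxl1 then stood at 1.18, 0.546 and 0.703 of Pou4f1 in the shUHRF1 libraries and at 0.262, 0.282 and 0.252 in the shControl libraries.

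The members that rose shared a pattern among the shUHRF1 libraries that the list did not use. Relative to the shControl mean, the libraries numbered 1, 2 and 3 stood at 17.4, 6.30 and 7.90 times for Runx1. The same libraries stood at 3.85, 1.55 and 2.02 times for Prrxl1 and at 3.72, 1.42 and 2.02 times for Shox2. All 3 genes were highest in replicate 1 and lowest in replicate 2, and Prrxl1 and Shox2 had nearly the same multiples. For Insm1 the multiples were 0.0150, 0.108 and 0.0581, the reverse order. Neurod1 had 0.616, 0.535 and 0.338, a different order. These values describe 3 libraries, with no test.

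Markers of other cells moved between the same groups, and their part in the result was not tested. The fibroblast and meningeal list summed to 74.8 to 175 CPM in shUHRF1 and 8.89 to 11.1 CPM in shControl, with 9 of 15 markers tested and all 9 called higher. Among 13 macrophage markers, 10 were tested and 5 called higher, and the list summed to 19.1 to 48.8 CPM in shUHRF1 and 7.90 to 14.6 CPM in shControl. The glial list (Schwann and satellite cells) had 12 of 15 markers tested, with 8 called higher and 1 lower. Its sum was 1071 to 2109 CPM in shUHRF1 and 1818 to 2601 CPM in shControl. Of all tested genes, 11.6% were called higher and 12.4% lower. Markers near 0 in shControl pass the filter only when high in shUHRF1. Within shUHRF1, replicate 1 had the lowest sum of all 3 lists, with 74.8 CPM for fibroblasts, 19.1 CPM for macrophages and 1071 CPM for glia. Runx1, Prrxl1 and Shox2 were highest in that library. Runx1 is also a gene of blood cells. Ptprc, on the macrophage list, had 3.01, 1.47 and 1.21 CPM in the shUHRF1 libraries, highest in replicate 1 as Runx1 was. It had 0.0581, 0.129 and 0.0957 CPM in the shControl libraries. Among the shUHRF1 libraries, the other macrophage markers listed were highest in replicate 2 or 3. The part of blood cells in the level of Runx1 was not tested. The erythroid and blood progenitor list summed to 141, 268 and 219 CPM in the shUHRF1 libraries. It summed to 117, 120 and 82.5 CPM in the shControl libraries. Of its 11 markers, 4 were tested and 1 was called higher (Kit), and Tal1 had 0 reads in all 6 libraries. The pan-neuronal list summed to 22626, 28015 and 29302 CPM in the shUHRF1 libraries numbered 1, 2 and 3, and to 32132, 30684 and 36747 CPM in the shControl libraries. This sum was thus lower in every shUHRF1 library. Of its 17 genes, Mapt, Gap43 and Tubb3 were called lower and 0 higher, 17.6% called against 24.0% of all tested genes. The groups overlapped for 12 of the 17, while 3 lay below and 2 above all shControl libraries. Over all tested genes, the groups did not overlap for 44.0%. The list's median log2 fold change was -0.13. Sympathetic neurons also express Insm1, and 6 of 7 of their markers stayed below 1 CPM in every library. The other, Phox2a, had 0.629, 8.71 and 3.49 CPM in the shUHRF1 libraries and 7.03, 8.67 and 5.93 CPM in the shControl libraries. The 8 cycling cell markers summed to 9.52, 15.7 and 12.1 CPM in the shUHRF1 libraries and to 15.2, 13.3 and 11.8 CPM in the shControl libraries, which overlap. Of 11 endothelial and mural markers, 7 were tested, with 3 called higher and 0 lower. They summed to 41.4 to 61.1 CPM in shUHRF1 and 43.4 to 46.2 CPM in shControl.

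**Figure D4:**
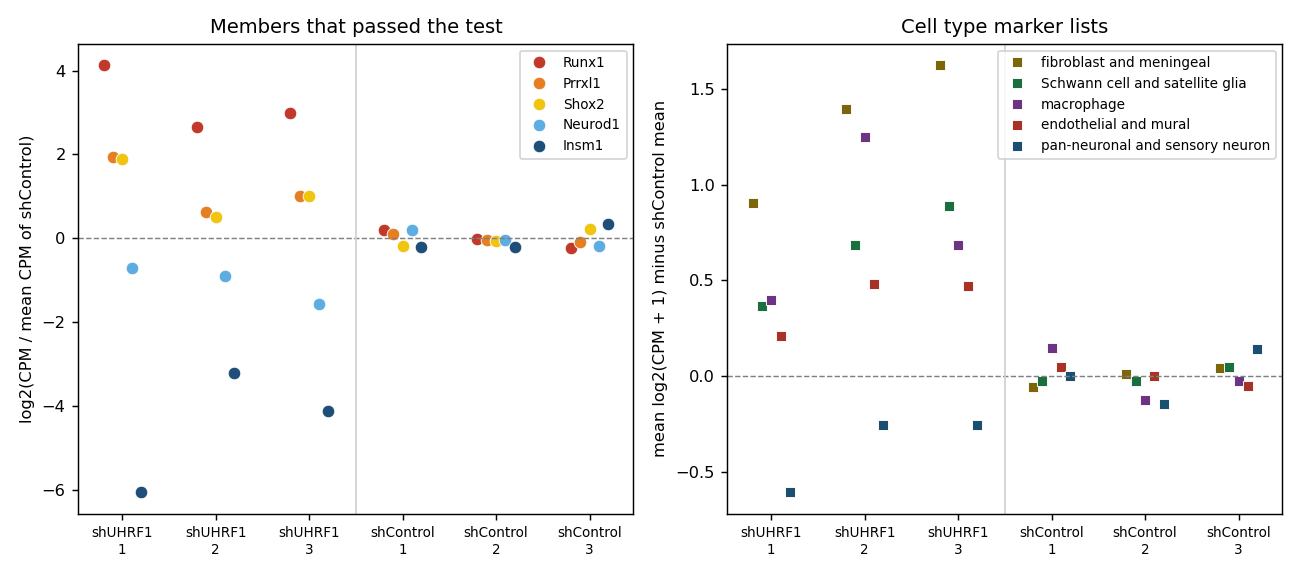
Left, log2 of the CPM of each called member over its mean in the shControl libraries, for each of the 6 libraries. Right, the mean log2(CPM + 1) of 5 marker lists minus its shControl mean. In shUHRF1 replicate 1, Runx1, Prrxl1 and Shox2 are highest and Insm1 lowest, while the fibroblast, glial, macrophage and endothelial lists are lowest among the shUHRF1 libraries.

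Other transcription factors of the sensory lineage changed in both directions. Of 52 listed, 40 were tested. The test called 10 higher and 5 lower and left 25 uncalled, 37.5% called against the 24.0% of all tested genes, with a median log2 fold change of -0.17. Without shControl replicate 1 or replicate 3, 8 and 9 were called. The 4 with the smallest p rose. Ldb2, whose product bridges LIM-homeodomain proteins such as ISL1 to other factors, had 22 ± 5.27 CPM in shUHRF1 and 5.08 ± 0.199 CPM in shControl (log2 fold change 2.12, edgeR adjusted p = 0.000878). The homeodomain gene Onecut1 had 8.73 ± 1.26 CPM in shUHRF1 and 2.18 ± 0.602 CPM in shControl (1.99, 0.00213). Meis2, a homeodomain gene of the TALE class, had 289, 117 and 137 CPM in the shUHRF1 libraries and 44.9, 40.3 and 42.6 CPM in the shControl libraries, and was highest in replicate 1 as Runx1 was. Its relative Meis1 had 38.0 ± 1.36 CPM in shUHRF1 and 18.5 ± 3.51 CPM in shControl (SD, n = 3 each). The neurogenin genes Neurog1 and Neurog2, which start the lineage, had at most 1 read in any library.

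Of 9 RUNX partners and corepressors, 4 rose and 0 fell by edgeR's test, 44.4% called against 24.0% of all tested genes. Tle3 and Tle1 encode corepressors of the Groucho family that RUNX proteins recruit. Tle3 had 28.0 ± 7.27 CPM in shUHRF1 and 7.34 ± 2.82 CPM in shControl, and Tle1 had 232 ± 10.6 CPM in shUHRF1 and 134 ± 23.8 CPM in shControl (SD, n = 3 each). Their edgeR adjusted p was 0.00529 and 0.00705, and both held in all 6 fits with 1 library left out. Hipk2, a kinase that modifies RUNX1, and Cbfa2t2, a corepressor of the ETO family, had log2 fold changes of 0.66 and 0.43 (edgeR adjusted p = 0.0363 and 0.0396). Without a low-count filter both were lost (0.0524 and 0.145), as they were with library pairs 1 and 3 alone (0.153 and 0.0814), which left 2 called. Leaving out 1 library left Hipk2 called in 2 of 6 fits and Cbfa2t2 in 1, and 2 of the list were called without shUHRF1 replicate 3, shControl replicate 1 or shControl replicate 2.

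Of 25 nociceptor and itch genes, 18 were tested, with 4 called higher, 2 lower and 12 neither (33.3% called against 24.0% of all tested genes, median log2 fold change 0.08). Tac1, the precursor of substance P, had 279, 60.6 and 112 CPM in the shUHRF1 libraries and 1.74, 1.29 and 2.77 CPM in the shControl libraries, again highest in replicate 1 (log2 fold change 6.25, or 5.44 without that library, edgeR adjusted p = 0.00108). Adcyap1, the precursor of the neuropeptide PACAP, rose by 1.99 ± 0.15 (SE) on the log2 scale. Kcnk18, which encodes the potassium channel TRESK, fell by 3.81 on the log2 scale. Genes that depend on RUNX1 in mouse ganglia at later stages, Mrgprd, Mrgpra3 and Mrgprb4, had at most 1 read in any library.

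Of 19 mechanoreceptor and proprioceptor genes, 18 were tested, with 2 called higher, 5 lower and 11 neither (38.9% called against 24.0% of all tested genes, median log2 fold change -0.33). Without shUHRF1 replicate 3, 4 were called. Kcns1, a silent potassium channel subunit gene, had 1.44, 2.65 and 1.74 CPM in the shUHRF1 libraries and 21.5, 13.1 and 18.2 CPM in the shControl libraries. The calcium-binding protein genes Calb2 and Necab2 fell by 3.59 and 1.51 on the log2 scale. Heg1, which encodes a transmembrane protein, had 13.3 ± 1.04 CPM in shUHRF1 and 4.27 ± 0.635 CPM in shControl (SD, n = 3 each). The lists of nociceptor and mechanoreceptor genes thus held calls in both directions, as the identity factors did.

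**Figure D5:**
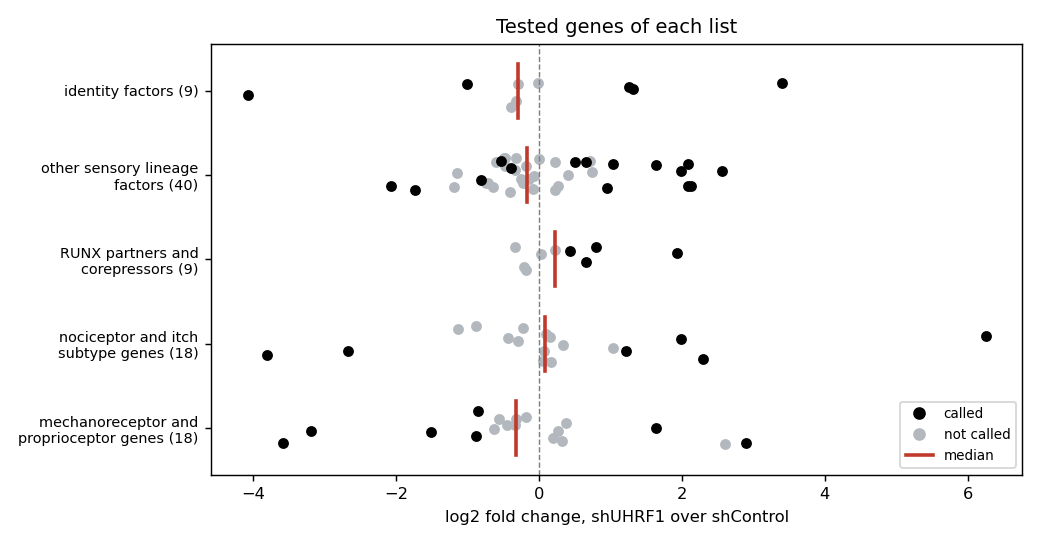
Log2 fold change of the tested genes of each list in shUHRF1 over shControl, with called genes in black, others in grey and a red line at the list's median. Calls lie on both sides of 0 in every list except the RUNX partners, where 4 rose and 0 fell.

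The genes whose levels were most like those of Runx1 over the 6 libraries, by Pearson correlation of log2(CPM + 0.5) among 10283 candidate genes, were Limk2 (0.9989), Cbfa2t2 (0.9975) and Ccdc9b (0.9972). Those most like Insm1 were Jag2 (0.9990), Ydjc (0.9982) and Il6st (0.9981). Limk2, a kinase gene of actin control, had 494, 330 and 368 CPM in the shUHRF1 libraries and 179, 159 and 157 CPM in the shControl libraries. Jag2, which encodes a Notch ligand, had 38.3, 63.4 and 50.1 CPM in the shUHRF1 libraries and 130, 123 and 145 CPM in the shControl libraries. Correlations above 0.95 were common, at 487 genes with Runx1 and 902 with Insm1, and all 6 points share the difference between the groups and the library of each sample.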

How the data were processed

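The authors deposited 1 table of raw read counts per gene for each of 6 libraries. Per the submitters' processing notes, the tools were FastQC, STAR, HTSeq and DESeq2, and the build was mm10. The sources used here do not state versions, annotation release or strand setting. Per the labels' protocols, rRNA was removed (Ribo-Zero Gold) before SMARTer cDNA synthesis. Summary lines that name no gene were dropped before any library size was computed. Reads outside genes made up 8.43% to 17.18%, ambiguous reads 2.12% to 2.265% and non-unique alignments 30.5% to 37.28%.

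Symbols, positions and exon lengths came from GENCODE release M21 (GRCm38), which matched 47224 of 47643 identifiers, and promoter windows came from a table of RefSeq promoters (GRCm38.p6), in which 9 of the 10 members were matched. Insm1 was the other.

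From the deposited counts, edgeR 4.0.16 in R 4.3.3 (filterByExpr defaults, TMM factors, two-sided quasi-likelihood F test, no block) compared shUHRF1 with shControl over all 6 libraries, with Benjamini-Hochberg adjustment and a threshold of 0.05. CPM used TMM-scaled library sizes, and standard errors came from the F statistic. The fit was tested on simulated data. Replicates of a group differed by far more than sampling noise. Same-numbered libraries deviated together from their group means, with correlations of 0.311, 0.396 and 0.377. The numbers may therefore pair the libraries. The main fit leaves this pairing out, and the replicate block was fitted as an alternative. This pairing is inferred from the data, and the block value is given beside a named gene whose call it changed.

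Alternatives were RLE and upper-quartile factors, DESeq2 1.42.0, limma-voom (limma 3.58.1), 2 other filters, a replicate block, dropping mitochondrial and small RNA genes, library pairs 1 and 3 alone, and each library left out in turn. All 10 members are named, with up to 4 genes of each other list by smallest unadjusted p and the 3 genes most like Runx1 and Insm1 with a mean of at least 5 CPM, leaving out predicted and mitochondrial genes. A gene that this rule names is not reported here. Other genes are named for a fact beside a result and were chosen after their values were seen. The members and lists were chosen with earlier results of these data known.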

Additional observations from a re-analysis of the deposited data

How the results depend on the processing

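Runx1 and Insm1 were called under all 15 alternatives. Of 135 member values under alternatives, 111 kept their direction and their side of the threshold, 15 lost and 6 gained a call, and 3 turned sign without a call. The 3 were Isl1, with log2 fold changes of 0.10 with upper-quartile scaling, 0.02 with the filter of 2 CPM in 3 libraries and 0.05 without shControl replicate 1 (-0.12 to 0.05 with 1 library left out). Upper-quartile scaling moved the median of all genes to 0.142, against 0.017 with TMM. The number of members called was 2 to 5 with 1 library left out, and it was 2 whichever shControl library was left out, where Runx1 and Insm1 remained. It was 7 with DESeq2, which called 4290 genes in all, and 7 with the replicate block. The block gave 4820 called genes (31.0%) against 3735 without it, called Cbfb and Pou4f1 in addition, and changed no other member call. With it, 21 of the other sensory lineage factors were called, against 15 without it, and 8 nociceptor genes, against 6. Leaving out 1 library gave 1768 to 3888 called genes, 8 to 16 of the other sensory lineage factors, 2 to 3 of the RUNX partners, 4 to 8 of the nociceptor genes and 4 to 7 of the mechanoreceptor genes. RUNX partners numbered 2 without a low-count filter and 2 with library pairs 1 and 3. Fits with a library left out hold fewer samples. For the other changes the cause was not tested. Scaled by the longest transcript instead of merged exons, the mean CPM per kb of Isl1 was 32.3 in shUHRF1 and 32.8 in shControl, that of Runx1 3.63 in shUHRF1 and 0.344 in shControl, that of Cbfb 74.1 in shUHRF1 and 97.9 in shControl, and that of Prrxl1 20 in shControl. Depth limits Runx3 and Uhrf1. The calls of Pou4f1 and Cbfb depend on the test and the block.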

Other observations

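Of close relatives of the members, chosen after their values were seen, Isl2 fell and Pou4f2 rose, while Isl1 and Pou4f1 did not pass the test. Isl2, the relative of Isl1, had 6.11, 26.9 and 28.9 CPM in the shUHRF1 libraries numbered 1, 2 and 3, against 57.4, 64.9 and 83.5 CPM in the shControl libraries (log2 fold change -1.74 ± 0.49, SE, edgeR adjusted p = 0.0357). It was lower in 3 of 3 shUHRF1 libraries, and the call held in 2 of 6 fits with 1 library left out. Without shUHRF1 replicate 1, where it was lowest, the log2 fold change was -1.30. Pou4f2, the relative of Pou4f1, had 23.6, 11.8 and 18 CPM in the shUHRF1 libraries, against 6.16, 4.4 and 6.7 CPM in the shControl libraries (1.63 ± 0.28, SE, edgeR adjusted p = 0.00645), and this held in all 6. Runx2, the relative of Runx1, had 0.314, 0.53 and 0.63 CPM in the shUHRF1 libraries and 0.407, 0.777 and 0.526 CPM in the shControl libraries, which overlap (edgeR adjusted p = 0.773). Whether each relative differs from its member in its response was not tested.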
